A study of Homo sapiens with 4 samples.

Results

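The promoters of the 9 genes that encode the Notch receptors (NOTCH1, NOTCH2, NOTCH3 and NOTCH4) and their canonical ligands (DLL1, DLL3, DLL4, JAG1 and JAG2) were examined for trimethylation of histone H3 at lysine 27 (H3K27me3), the mark of Polycomb repression, and at lysine 4 (H3K4me3), the mark of active or poised promoters. The genes were taken by symbol, and each had 1 row among the 20242 promoters measured. The cells were JMJD3c-hESCs, human embryonic stem cells of the established line SEES-3 that make JMJD3c, a C-terminal fragment of the H3K27 demethylase JMJD3 with its catalytic domain, when doxycycline (Dox) is added. Chromatin was precipitated with an antibody against each mark from untreated cells (−Dox) and from cells given 1 µg/ml Dox (+Dox), and both were collected at day 3 in a medium that maintains the undifferentiated state. All cells carried the inducible construct, so the groups differed in Dox itself as well as in JMJD3c, and the effects of the drug and of the demethylase cannot be told apart from these 4 libraries.

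Each mark and condition had 1 library. No difference below therefore has a replicate check, and no p-value is given. Values are signal, that is, coverage that the authors scaled to the reads of each library and summed within 3 kb of the transcription start in both directions. Each library had a smallest step of which all its values were whole multiples, and from it approximate reads per promoter were obtained. The step was the same in both +Dox libraries. An error of scale in either was not tested and would shift all ratios of its mark. The 95% intervals beside levels (exact Poisson) and beside +Dox/−Dox ratios (exact Clopper-Pearson, by way of the share of reads that came from +Dox cells) rest on those reads. They cover counting error only and compare 2 libraries rather than 2 conditions. The libraries held about 171153 to 197460 reads in the promoter windows for H3K27me3 and 719840 to 965788 for H3K4me3, so a typical promoter had about 5 reads of H3K27me3 and was measured with little precision for that mark. Of 12 pluripotency genes, 11 carried H3K4me3 above 20 and no H3K27me3 above 20 in −Dox cells, against 54.2% of all promoters. The exception, POU5F1, was measured at a start 10049 bp away from the canonical start. NANOG (1608 bp) and TDGF1 (3362 bp), both among the 11, were also measured away from it. The promoters of 9 genes of differentiated cells were below 20 for both marks in −Dox cells, against 34.8% of all promoters. Of these, HBB was measured 2324 bp away, and PTPRC had no distance.

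Notch signaling passes between touching cells. A ligand of the Delta-like or Jagged family on one cell binds a Notch receptor on its neighbor, the receptor is cut by ADAM proteases and then by gamma-secretase, and the freed intracellular domain joins RBPJ and a Mastermind protein on DNA to switch on HES and HEY genes. The pathway is used repeatedly in the embryo, among others in somite segmentation, in the spacing of neurons and in the growth of blood vessels.

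Promoter sequences are shown for 3 members that differed in their marks: DLL4, the member with the most H3K27me3; JAG1, the member with the lowest H3K27me3 ratio; and NOTCH4, the only member below 20 for both marks. The sequences are those of RefSeq on GRCh38.p14, from 250 bases before to 50 bases after the start, written 5′ to 3′ on the strand of the gene, and the capitals mark CpG dinucleotides. Their starts coincided with the deposited starts. DLL4 lies on the plus strand at chr15:40929090-40929389, JAG1 on the minus strand at chr20:10673950-10674249 and NOTCH4 on the minus strand at chr6:32224018-32224317.
DLL4: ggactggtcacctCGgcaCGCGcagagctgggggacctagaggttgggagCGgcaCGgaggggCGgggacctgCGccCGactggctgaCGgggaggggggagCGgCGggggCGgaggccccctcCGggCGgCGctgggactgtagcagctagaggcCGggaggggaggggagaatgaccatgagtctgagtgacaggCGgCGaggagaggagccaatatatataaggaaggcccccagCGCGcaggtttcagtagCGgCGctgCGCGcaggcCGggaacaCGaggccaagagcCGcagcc
JAG1: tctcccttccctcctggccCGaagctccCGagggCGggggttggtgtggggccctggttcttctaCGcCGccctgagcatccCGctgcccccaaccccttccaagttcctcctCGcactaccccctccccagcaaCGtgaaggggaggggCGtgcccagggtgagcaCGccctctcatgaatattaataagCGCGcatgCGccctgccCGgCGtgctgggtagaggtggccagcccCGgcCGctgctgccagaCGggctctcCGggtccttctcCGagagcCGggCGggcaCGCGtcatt
NOTCH4: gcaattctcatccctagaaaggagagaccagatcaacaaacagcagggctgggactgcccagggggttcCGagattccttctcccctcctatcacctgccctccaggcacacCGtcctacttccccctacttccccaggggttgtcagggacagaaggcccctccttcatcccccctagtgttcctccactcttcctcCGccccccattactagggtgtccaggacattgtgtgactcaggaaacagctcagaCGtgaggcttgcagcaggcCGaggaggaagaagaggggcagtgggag
The DLL4 promoter held 27 CpG, JAG1 24 and NOTCH4 5, against a median of 14 over 35116 RefSeq promoters of the same length. The letters TGGGAA, a core of the RBPJ recognition site, were searched on both strands. They occurred in 24.0% of all promoters and in none of the 7 members with an entry (NOTCH1, NOTCH2, NOTCH3, NOTCH4, DLL4, JAG1 and JAG2).

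Before induction ligands had more H3K27me3 than receptors, but only DLL3 and DLL4 had counting intervals above those of all receptors. The signal in −Dox cells ran from 10.3 to 118 at the 5 ligands and from 1.52 to 8.75 at the 4 receptors. Every ligand value thus lay above every receptor value. The intervals of DLL1 (12.6 to 34.6), JAG1 (6.09 to 23.4) and JAG2 (4.39 to 20.02), however, overlapped that of the highest receptor, NOTCH4 (3.58 to 18.3). Promoters above 20 for both marks in −Dox cells were called bivalent. DLL1, DLL3 and DLL4 were bivalent, 3 of the 9 members against 9.42% of all promoters, whereas NOTCH1, NOTCH2, NOTCH3, JAG1 and JAG2 carried H3K4me3 only (5 of 9, against 54.2% of all promoters) and NOTCH4 was unmarked. In order of H3K27me3 in −Dox cells, DLL4 was followed by DLL3 and then DLL1, with intervals that did not overlap between DLL4 and DLL3 or between DLL3 and DLL1. From DLL1 down to NOTCH1 the intervals of all neighbors in the order overlapped. The order for H3K4me3 was another one. JAG1, DLL1, NOTCH1 and DLL4 formed an upper group, from 119 down to 82.6, within which neighboring intervals overlapped, and NOTCH3, NOTCH2, DLL3 and JAG2 a lower one, from 44.7 to 31.9.

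**Figure D1:**
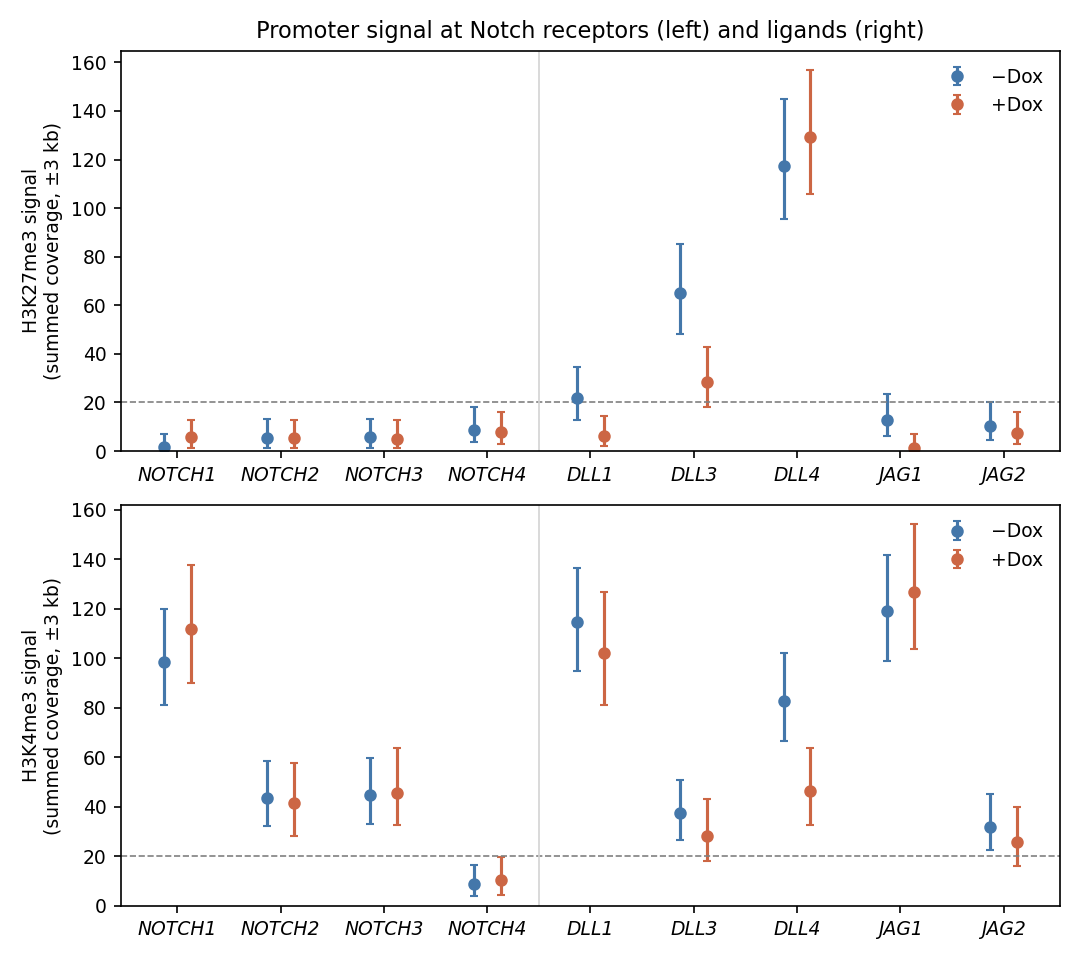
Signal summed within 3 kb of the start for H3K27me3 (top) and H3K4me3 (bottom) at the 4 receptors and 5 ligands, with 1 library per point, exact 95% Poisson intervals as bars, −Dox in blue, +Dox in orange, and the threshold of 20 as a dashed line. In −Dox cells H3K27me3 exceeded 20 only at DLL1, DLL3 and DLL4, while H3K4me3 exceeded 20 at all members except NOTCH4.

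After induction the H3K27me3 signal was lower at DLL1, DLL3 and JAG1 with 95% intervals below 1, of which only that of DLL3 stayed below 1 at the 99% level, while at DLL4 the interval of the ratio included 1. Of the 9 members, 3 had a ratio below 0.5 (background 21.5% of all promoters with a ratio, and 40.8% of bivalent promoters) and 1, NOTCH1, a ratio above 2 (background 14.7%). The interval of the ratio lay below 1 for DLL1, DLL3 and JAG1, the members below 0.5 (background 7.05%, and 48.5% of bivalent promoters), and above 1 for 0 (background 1.59%). DLL3 and DLL4 were still bivalent in +Dox cells, 2 of the 9 members against 5.07% of all promoters. The median log2 ratio was −0.24 over the 9 members, −1.20 over the ligands and −0.09 over the receptors, against −0.14 over all promoters. With the H3K27me3 libraries scaled to the same total these medians became −0.00053, −0.96, 0.14 and 0.10, so the receptors and all promoters changed sign. At the 95% level the 3 intervals still lay below 1 under this scaling, but DLL3 then had a ratio of 0.513, which left 2 members below 0.5. Only DLL1, DLL3 and DLL4 had a mean of at least 10, so the median over them, −1.20, was the value of DLL3 itself. JAG1 did not pass, and DLL1 passed through its −Dox value, since its +Dox value was 6.34.

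DLL1 is an activating ligand with roles in somites and in neural progenitors. Its H3K27me3 was 21.7 in −Dox and 6.34 in +Dox cells, about 17 and 5 reads, with a ratio of 0.292 (0.0832 to 0.814). H3K4me3 at DLL1 was 115 and 102, a ratio of 0.892 (0.667 to 1.19). The promoter thus went from just above the threshold for H3K27me3 to well below it with H3K4me3 in place, and was H3K4me3-only in +Dox cells. Its −Dox interval of 12.6 to 34.6 included 20, so its bivalent class was not secure at this depth, and with a class threshold of 30 it was H3K4me3-only. The interval of its H3K27me3 ratio included 1 at the 99% level. Among 362 other bivalent promoters whose −Dox H3K27me3 was within 1.2 times that of DLL1, the median ratio was 0.494 and 16.6% had a ratio at or below that of DLL1. The −Dox value used for the match is also the denominator of the ratio, so its counting error enters both. Near the low −Dox level of NOTCH1, 193 H3K4me3-only promoters had a median ratio of 3.68. The medians of such matched promoters, here and below, therefore do not measure a typical change. FAM120B starts 375 bp away on the opposite strand, and its window overlaps most of that of DLL1. FAM120B values of 24.0 and 6.34 for H3K27me3 and of 120 and 104 for H3K4me3 are therefore largely the same reads, and the marks cannot be assigned to either gene.

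DLL3 is a divergent ligand that does not activate receptors on neighboring cells and is known for its role in somite formation. H3K27me3 at DLL3 was 65.0 in −Dox and 28.3 in +Dox cells, about 51 and 23 reads, with a ratio of 0.436 (0.258 to 0.737). The 2 level intervals, 48.2 to 85.2 and 18.2 to 43.0, did not overlap. H3K4me3 at DLL3 was 37.3 and 28.3, a ratio of 0.759 (0.440 to 1.32). DLL3 remained above 20 for both marks and so was still bivalent after induction. The ratio of DLL3 was close to the median of 0.570 for 289 bivalent promoters within 1.2 times its −Dox level, and 31.5% of those were at or below it.

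DLL4 is the ligand of sprouting endothelium and arterial cells. H3K27me3 at DLL4 was 118 in −Dox and 129 in +Dox cells, about 93 and 104 reads, with a ratio of 1.10 (0.821 to 1.47). Values scaled to library reads are relative, so this ratio does not show that DLL4 kept its amount of H3K27me3. The lower bound of this interval lay above the upper bounds for DLL1, DLL3 and JAG1, so the H3K27me3 ratios of DLL4 and of those 3 ligands were apart at the 95% level. Of 180 bivalent promoters within 1.2 times its −Dox level, 9.44% had a ratio at or above that of DLL4, and their median was 0.719. DLL4 accounted for 52.0% of the H3K27me3 reads of the 5 ligands in −Dox cells (Clopper-Pearson interval 44.4 to 59.5%) and for 74.8% in +Dox cells (66.8 to 81.8%). H3K4me3 at DLL4 was lower after induction. It was 82.6 in −Dox and 46.2 in +Dox cells, about 87 and 37 reads, with a ratio of 0.559 (0.368 to 0.826), and DLL4 was the only one of the 9 members whose H3K4me3 interval excluded 1. A lower H3K4me3 ratio than that of DLL4 was found at 7.50% of all 1907 bivalent promoters and at 15.8% of the 304 bivalent promoters with a −Dox H3K27me3 signal of at least 100. An H3K27me3 ratio above 1, whatever its interval, together with an H3K4me3 interval below 1 was found at 3.41% and 11.5% of these promoters. This combination is that of DLL4 itself, whose H3K27me3 interval included 1, so these shares are descriptive only.

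**Figure D2:**
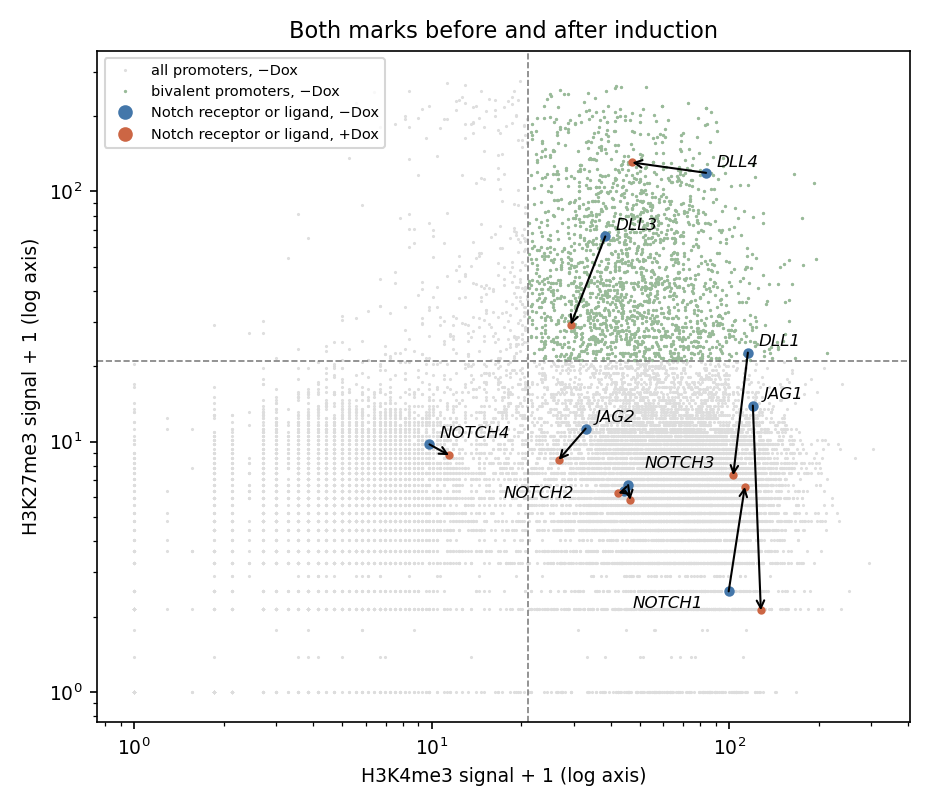
H3K27me3 signal + 1 against H3K4me3 signal + 1, both on log axes, for all promoters in −Dox cells (gray), bivalent promoters in −Dox cells (green) and the 9 Notch genes, whose arrows run from the −Dox (blue) to the +Dox (orange) value, with the thresholds of 20 as dashed lines. DLL1, DLL3 and JAG1 point downward, to H3K27me3 values of 6.34, 28.3 and 1.12, DLL4 points to lower H3K4me3, and NOTCH2, NOTCH3 and NOTCH4 hardly move.

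JAG1 is an activating ligand needed for bile duct and heart development. H3K27me3 at JAG1 was 12.9 in −Dox and 1.12 in +Dox cells, about 10 reads against 1, with a ratio of 0.0865 (0.00226 to 0.689). H3K4me3 at JAG1 was the highest of the 9 members in both conditions, at 119 and 127, a ratio of 1.06 (0.814 to 1.398). Its H3K27me3 was below 20 before induction, and with 1 read in +Dox cells the size of the ratio is poorly known. It was 0.152 with a pseudocount of 1 and 0.341 with a pseudocount of 5, and the interval without a pseudocount included 1 at the 99% level. Without a pseudocount, 0.586% of 1024 other H3K4me3-only promoters within 1.2 times its −Dox H3K27me3 level had a ratio this low or lower, and their median ratio was 0.578. The match and the ratio share the −Dox value, so the limit given for DLL1 holds here too.

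JAG2, the second Jagged ligand, had H3K27me3 values of 10.3 and 7.46, about 8 and 6 reads, with a ratio of 0.726 (0.210 to 2.42). Its H3K4me3 was 31.9 and 25.7, a ratio of 0.806 (0.446 to 1.43). A change of either mark at JAG2 was not detectable at this depth. Summed over the 5 ligands, H3K27me3 was 227 before and 173 after induction, with a ratio of 0.759 (0.606 to 0.955) that became 0.893 (0.712 to 1.12) with scaling to the same total and so included 1. H3K4me3 summed over the ligands was 386 and 329, a ratio of 0.854 (0.731 to 1.002), which became 0.783 (0.670 to 0.919) with scaling over low promoters (those above 0 and below 20 in both conditions, set to a median ratio of 1) and so lay below 1.

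The receptors were low for H3K27me3 in both conditions. NOTCH1, which is required for blood stem cell and vessel formation, had H3K27me3 values of 1.52 and 5.59, about 1 and 4 reads, with a ratio of 3.68 (0.388 to 193) that allows no direction. NOTCH1 had the most H3K4me3 of the receptors, 98.6 and 112, a ratio of 1.13 (0.844 to 1.52). NOTCH3, known from vascular smooth muscle, had H3K27me3 values of 5.70 and 4.85, about 4 reads in each library, and H3K4me3 values of 44.7 and 45.5, with a ratio of 1.02 (0.651 to 1.62). The H3K4me3 intervals of both receptors included 1, and that of NOTCH3 allows a ratio as low as 0.651.

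NOTCH2, a widely expressed receptor, had H3K27me3 values of 5.32 and 5.22 and H3K4me3 values of 43.3 and 41.4, with an H3K4me3 ratio of 0.955 (0.581 to 1.5). The NOTCH2 window has a copy on GRCh37 chromosome 1 at 145206118 to 145212146, identical at 98.3% of 6046 aligned bases. How reads with more than 1 match were treated is not given in the sources used here, so the NOTCH2 values are uncertain. No other window of the 8 searched had a copy with at least 1000 aligned bases.

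NOTCH4, an endothelial receptor, was the only member without either mark. H3K27me3 at NOTCH4 was 8.75 and 7.83, and H3K4me3 was 8.83 and 10.4, about 9 and 8 reads, a ratio of 1.18 (0.390 to 3.40). Its H3K4me3 interval in −Dox cells, 3.92 to 16.3, did not overlap that of the next member, JAG2. Summed over the 4 receptors, H3K27me3 was 21.3 and 23.5, a ratio of 1.10 (0.531 to 2.31), and H3K4me3 was 195 and 209, a ratio of 1.07 (0.865 to 1.31). The interval of the H3K27me3 sum of the receptors includes that of the ligands, so a difference in change between receptors and ligands was not detectable.

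**Figure D3:**
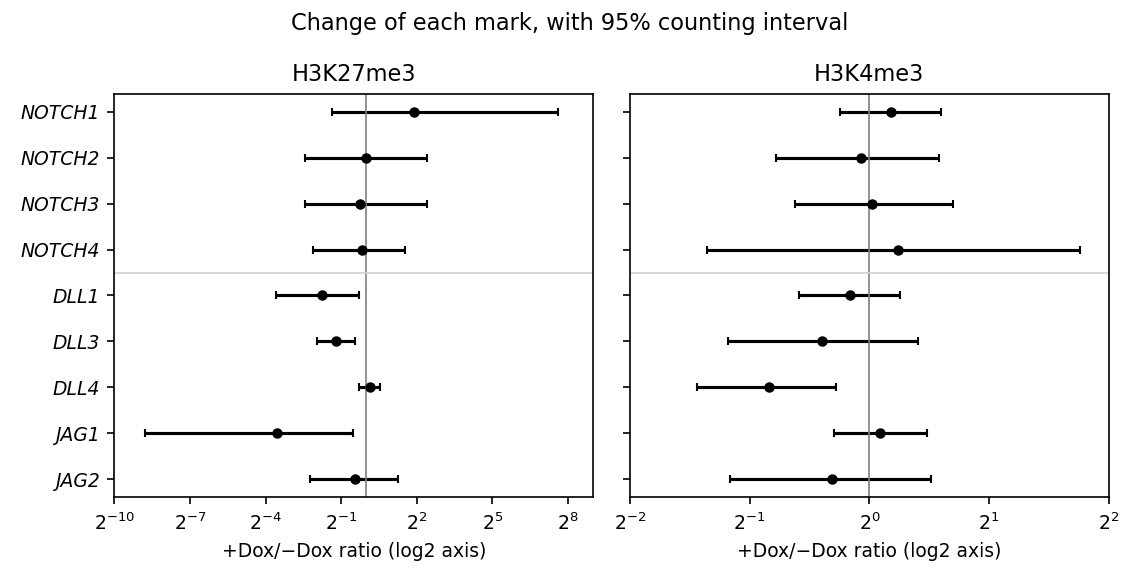
The +Dox/−Dox ratio of H3K27me3 (left) and H3K4me3 (right) at each of the 9 genes on log2 axes with different ranges, with 95% counting intervals as bars and a vertical line at 1. The H3K27me3 bars of DLL1, DLL3 and JAG1 lie below 1 with ratios of 0.292, 0.436 and 0.0865, and among the H3K4me3 bars this holds only for DLL4, with a ratio of 0.559.

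For H3K4me3, 0 of the 9 members had a ratio below 0.5 (background 5.33%) and 0 had a ratio above 2 (background 6.09%). The interval lay below 1 for 1 member (background 3.06%, and 10% of bivalent promoters) and above 1 for 0 (background 1.81%). The ratios ran from 0.559 at DLL4 to 1.18 at NOTCH4, and the median log2 ratio was −0.07, against −0.02 over all promoters, which became −0.03 and 0.01 with scaling to the same total and −0.19 and −0.15 with scaling over low promoters. H3K4me3 was above 20 at the same 8 members in both conditions. In +Dox cells DLL4 left the upper group for H3K4me3, since the interval of DLL1 (81.2 to 127) no longer overlapped that of DLL4 (32.4 to 63.5), while DLL4 and NOTCH3 (32.4 to 63.5) then could not be separated.

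The sequence around the starts was compared with the marks, since H3K4me3 and Polycomb marks are known to gather at CpG-rich promoters. Windows of 6 kb on GRCh37, the assembly behind hg19, could be placed for 8 members. NOTCH1 could not be placed, because its deposited transcript was not found in GENCODE 44. JAG2 held 427 CpG, DLL1 407, DLL4 340 and JAG1 325, which placed these 4 ligands above 96.2% or more of all windows. NOTCH3 held 255, NOTCH2 175 and DLL3 169. NOTCH4 held 75 CpG, with 16.3% of all windows holding fewer, near the median of 79 for unmarked promoters. Bivalent promoters had a median of 219 CpG, and H3K4me3-only promoters 180. CpG number did not follow H3K27me3 among the ligands, as JAG2, with the most CpG, was not bivalent, whereas DLL3, with the fewest CpG of the ligands, had the second highest H3K27me3.

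**Figure D4:**
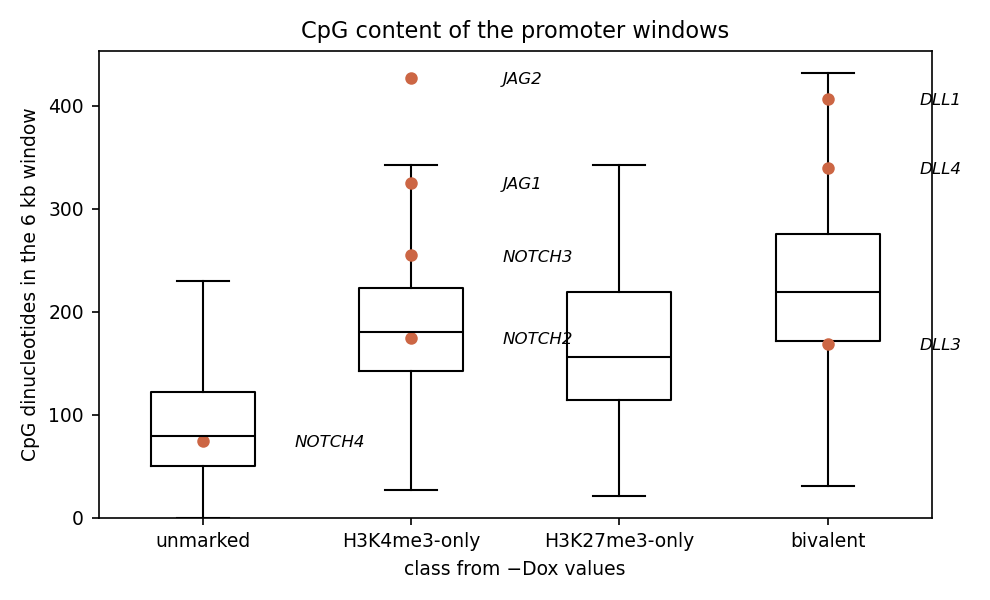
CpG dinucleotides in the 6 kb window by class in −Dox cells, with boxes for the quartiles and median of all placed windows, whiskers to 1.5 times the box length, and orange points for 8 of the Notch genes. NOTCH4 sits with 75 CpG near the unmarked median of 79, DLL1 and DLL4 lie above the bivalent median of 219, and DLL3 lies below it with 169.

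The deposited starts of the 8 placed members coincided with the canonical starts. On GRCh37, DLL4 had its window at chromosome 15, 41218538 to 41224538, DLL3 at chromosome 19, 39986587 to 39992587, and DLL1 at chromosome 6, 170597166 to 170603166. JAG1 was measured at chromosome 20, 10651647 to 10657647, a window in which a long noncoding RNA on the opposite strand (ENSG00000270792) also starts, and JAG2 at chromosome 14, 105632113 to 105638113. NOTCH2 was measured at chromosome 1, 120609276 to 120615276, NOTCH3 at chromosome 19, 15308806 to 15314806, and NOTCH4 at chromosome 6, 32188844 to 32194844. Each window spans the promoter, the first exon and the start of the gene.

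For each member the promoter most alike in all 4 libraries was sought by the distance between log2(signal + 5) values. DLL4 was nearest to ITPKA, with 115 and 152 for H3K27me3 and 87.2 and 49.6 for H3K4me3, at a distance of 0.26. DLL3 was nearest to CALCR (60.9, 29.1, 38.5 and 29.5, distance 0.11), DLL1 to FAM120B (distance 0.14), with which it shares its window, and JAG1 to SEMA5B (12.2, 2.24, 107 and 130, distance 0.29). The nearest promoters of NOTCH1, NOTCH2, NOTCH3, NOTCH4 and JAG2 were those of TBCC, GAMT, ZDHHC8, MTPAP and CLDN1, at distances of 0.09 to 0.10. Likeness here is over 4 values only.

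The remaining pathway was described with 67 other genes in 5 groups, of which 49 had H3K4me3-only promoters (54.2% of all promoters), 11 were unmarked (34.8%), 6 bivalent (9.42%) and 1, HES2, H3K27me3-only (1.58%). The 6 bivalent promoters of 67 are close to the share over all promoters. Among the unmarked genes, HDAC2 (40160 bp), TLE2 (18355 bp), LFNG (7245 bp), RBPJ and EGFL7 were measured away from their canonical starts. Their class therefore does not describe their canonical promoters. For H3K27me3 64 of them had a ratio, which was below 0.5 at 6 (background 21.5%) and above 2 at 7 (background 14.7%). The interval lay below 1 for 2 and above 1 for 2 (background 7.05% and 1.59%), with a median log2 ratio of −0.06 that became 0.18 with scaling to the same total. FURIN, DTX2 and EGFL7 were listed at 0 for H3K27me3 in −Dox cells, had no ratio and are left out of these counts and of the background. EGFL7 had 11.6 in +Dox cells, about 9 reads, so the interval of its ratio had a lower bound of 1.94 and no upper bound, above 1 like those of the 2 genes counted. It was measured 4060 bp away from its canonical start. FURIN had 5.22 and DTX2 1.12 in +Dox cells, with lower bounds below 1. For H3K4me3 the interval lay below 1 for 3 of 66 and above 1 for 1 (background 3.06% and 1.81%), with a median log2 ratio of −0.11.

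In a group of 11 genes (the HES and HEY families and NRARP), 3 promoters were bivalent, all of the HES family, against 9.42% of all promoters. Whether each of the 11 is a target of the pathway in these cells was not tested. HES7, an oscillating repressor of the somite clock, had H3K27me3 values of 77.2 and 39.5, with a ratio of 0.512 (0.324 to 0.801), and H3K4me3 values of 175 and 166, a ratio of 0.945 (0.751 to 1.19). HES6 had H3K27me3 values of 34.6 and 16.4, with a ratio of 0.474 (0.224 to 0.947) that included 1 with scaling to the same total, and its H3K4me3 ratio was 0.760 (0.457 to 1.28). HES4 resembled DLL4 in H3K4me3, which was 84.6 before and 45.9 after induction, with a ratio of 0.542 (0.360 to 0.807), while its H3K27me3 of 116 and 85.4 gave a ratio of 0.736 (0.536 to 1.03). HES2, the H3K27me3-only promoter, had H3K27me3 values of 44.9 and 32.8 at a start 4751 bp away from the canonical start. HES1, the most general target, had H3K27me3 values of 1.52 and 3.73 and H3K4me3 values of 98.6 and 85.0. The median log2 ratio of these 11 promoters was −0.12 for H3K27me3, which became 0.11 with scaling to the same total, and −0.24 for H3K4me3.

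The 18 genes of receptor processing and signaling included 0 bivalent promoters, where the share of 9.42% over all promoters would give fewer than 2, and 16 were H3K4me3-only (54.2% of all promoters). Their H3K27me3 did not exceed 8.75 in −Dox cells, and the one interval that excluded 1, at the coactivator gene EP300 with a ratio of 6.62 (1.05 to 348), rests on about 1 and 8 reads. RBPJ, the DNA-binding partner of Notch, was unmarked, but was measured 157559 bp away from its canonical start. Among 13 corepressor genes TLE1 had H3K27me3 values of 3.80 and 16.4, about 3 and 13 reads, with a ratio of 4.31 (1.17 to 23.2). H3K4me3 at TLE1 was 178 and 157.

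Of the 19 genes for sugar and ubiquitin modification of receptors and ligands, 2 ubiquitin ligase genes were bivalent, close to the 9.42% of all promoters. NEURL1, which acts on ligands, had H3K27me3 values of 30.4 and 15.3, with a ratio of 0.502 (0.223 to 1.02). MIB1, needed for ligand uptake, had values of 21.3 and 13.8, with a ratio of 0.648 (0.269 to 1.44), measured 35835 bp away from the canonical start. The −Dox value of MIB1 rests on about 17 reads, as at DLL1, so its bivalent class was not secure either. H3K4me3 was lower at DTX4, with a ratio of 0.654 (0.444 to 0.931), and at NEURL1B, with 0.638 (0.412 to 0.965), and higher at RFNG, a fringe glycosyltransferase gene, with 57.8 and 89.5 and a ratio of 1.55 (1.08 to 2.21) that included 1 with scaling over low promoters. Of the 6 non-canonical ligands only DNER was bivalent in −Dox cells, with H3K27me3 of 40.3 and 34.3, a ratio of 0.851 (0.498 to 1.47). DLK2 was H3K4me3-only in −Dox and bivalent in +Dox cells. Its H3K27me3 was 18.3 and 30.9, a ratio of 1.70 (0.876 to 3.64) whose interval lay above 1 with scaling to the same total.

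**Figure D5:**
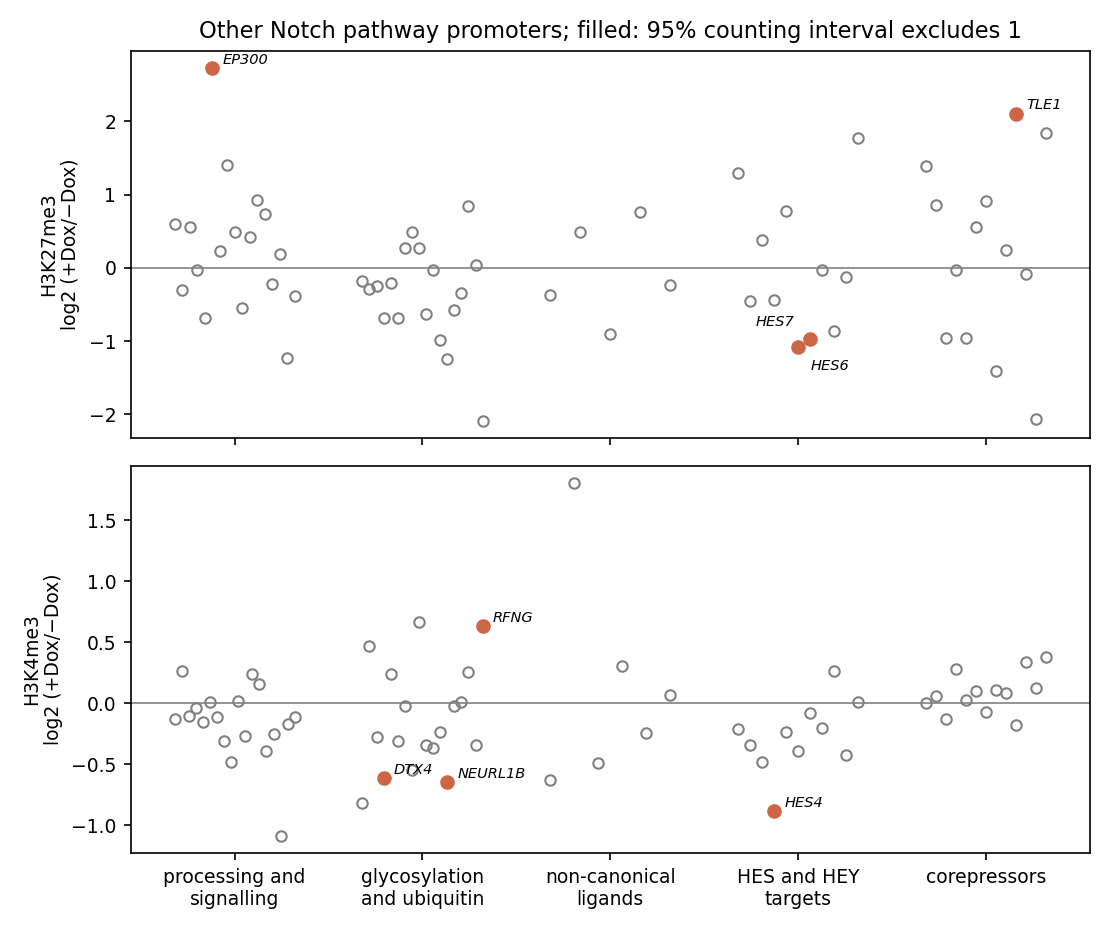
Log2 +Dox/−Dox ratio of H3K27me3 (top) and H3K4me3 (bottom) for the other Notch pathway promoters in 5 groups, without those at 0 in −Dox cells (FURIN, DTX2 and EGFL7 for H3K27me3, DTX2 for H3K4me3), with filled points where the 95% counting interval excludes 1. For H3K27me3 these are EP300 and TLE1 above and HES6 and HES7 below, and for H3K4me3 RFNG above and HES4, DTX4 and NEURL1B below.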

How the data were processed

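Chromatin immunoprecipitation libraries for H3K27me3 and H3K4me3 (1 library for each mark and condition) were sequenced by the authors on a MiSeq as single-end reads and mapped to hg19 with Bowtie2, and mitochondrial reads were excluded. CASAVA 1.4 is also named in the submitters' processing notes. The deposited values are signal, ngs.plot coverage scaled by the authors to library reads and summed within 3 kb of the start of 1 transcript per Ensembl gene. The versions of Bowtie2, ngs.plot and the annotation, the treatment of reads with several matches, and whether the stated scaling to the density downstream of transcription ends was applied to these tables, are not given in the sources used here. No input library was used here, and scaling to library reads would hide a loss shared by the whole genome. The authors report, from immunoblots, that total H3K27me3 fell after Dox, so the H3K27me3 ratios given here are relative.

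From the files, approximate reads were obtained by dividing each value by the library's step (0.285 to 0.380) and by 3.34 data points per read, the spacing of peaks among low values. Both +Dox libraries had the same step, 0.373, against 0.380 (H3K27me3) and 0.285 (H3K4me3) in −Dox cells. With scaling to library reads this would mean +Dox libraries of the same size. Whether either +Dox library carries the scale of the other was not tested. Such an error would shift all ratios of that mark by the same factor. All values (100%) were whole multiples of the step within 0.01 steps. Ratios are plain +Dox/−Dox ratios without a pseudocount. Promoters with a −Dox value of 0 had no ratio, and promoters above 20 counted as marked. The interval calculation was run on simulated Poisson reads. This checks the calculation only, since neither the estimate of reads from the values nor a spread between libraries was simulated. With 1 library per group no test was made. The 9 genes, the pathway lists and the rule for named genes were chosen with earlier results of these data known. All 9 genes were described, and of the other pathway genes those with a bivalent −Dox promoter or a ratio interval excluding 1. HES1, HES2, RBPJ, HDAC2, TLE2, LFNG, DLK2 and the genes at 0 were added after their values were seen. Positions come from GENCODE 44 on GRCh37 (18244 of 20242 transcripts matched), and copies were sought with minimap2 2.31. Alternatives were other scalings, pseudocounts of 1 and 5, class thresholds of 10 and 30, classes from +Dox values, a minimum mean value of 10, starts within 1 kb of the canonical one and 99% intervals. Python 3.11.15 with numpy 2.4.6, pandas 2.3.3 and scipy 1.17.1 was used.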

Additional observations from a re-analysis of the deposited data

How the results depend on the processing

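No paired analysis was possible because there is a single library for each mark and condition, so leaving one out would end the comparison. Scaling each mark to the same total raised H3K27me3 log2 ratios by 0.23, and scaling over low promoters (above 0 and below 20 in both conditions) to a median ratio of 1 lowered H3K4me3 log2 ratios by 0.12. The intervals of DLL1, DLL3 and JAG1 for H3K27me3 and of DLL4 for H3K4me3 lay below 1 under both scalings, but only 1 of the 3 H3K27me3 intervals, that of DLL3, did so at the 99% level. With a class threshold of 10, 5 of the 9 members were bivalent, JAG1 and JAG2 being added, and with a threshold of 30 only 2, DLL3 and DLL4. No single ratio left its interval, and none whose interval excluded 1 changed direction. Some ratios with an interval that included 1 did cross it. That of NOTCH4 for H3K27me3 went from 0.895 to 1.05 with the same total. For the other pathway genes, H3K27me3 intervals below 1 numbered 1 with the same total and 1 at the 99% level, HES7 in both cases. H3K27me3 intervals above 1 numbered 3 with the same total (DLK2, EP300 and TLE1), 1 with a mean value of at least 10 and 0 at the 99% level. H3K27me3 ratios below 0.5 numbered 6 of 64 (background 21.5%) and became 4 with the same total, 2 with a pseudocount of 5 and 1 with a mean of at least 10. H3K4me3 ratios below 0.5 numbered 1, at RBPJ, and became 2 with scaling over low promoters and 0 with either pseudocount, with a mean of at least 10 or with canonical starts. H3K4me3 intervals below 1 numbered 9 with scaling over low promoters and 1 at the 99% level, and those above 1 numbered 2 with the same total (RFNG and TLE4), 0 with scaling over low promoters and 0 at the 99% level. The H3K4me3 median of these genes became −0.24 with scaling over low promoters. The causes were not tested beyond what each construction implies.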
